A study of Homo sapiens with 4 samples.

Results

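The Krüppel-like factors (KLFs) are zinc finger transcription factors, and 10 of them were followed through hematopoietic differentiation of a human pluripotent cell line: KLF1, KLF2, KLF3, KLF4, KLF5, KLF6, KLF7, KLF10, KLF11 and KLF13. They were taken by gene symbol from the deposited expression table, where they made up 10 of 58274 gene identifiers, each on a single row. RNA was sequenced from undifferentiated cells of BC1, an established line of human induced pluripotent stem cells, and from 3 populations sorted from it. Differentiation began with activin A and BMP4 for 2 days and went on with VEGF and bFGF for 6 days. The populations were APLNR+ mesoderm cells of day 2, CD31+CD34+ hemogenic endothelial progenitors (HEPs) of day 5 and CD43+ hematopoietic progenitor cells (HPCs) of day 8, called mesoderm, HEPs and HPCs after their sort. The labels give no genetic change in any of them, and all came from this 1 cell line. Each had 1 library, so none of the differences has a replicate check and no test between populations was possible.

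KLF proteins bind GC-rich elements and CACCC boxes through zinc fingers near their C terminus, while their N-terminal parts differ and recruit activators or corepressors. KLF1 drives the globin, heme and membrane genes of red cells. KLF2 maintains quiescent, flow-exposed endothelium. KLF2, KLF4 and KLF5 also support pluripotency, KLF3 represses through CtBP, and KLF10, KLF11 and KLF13 repress through SIN3A.

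Levels are given as FPKM, fragments scaled to transcript length and to the mapped fragments of the library, so that genes can be compared per length. Changes are given on log2(FPKM + 1), and a gene is said to rise or fall where it changed by at least 1 on this scale. Folds are ratios of FPKM with an exact 95% interval from approximate fragment counts, which covers counting error only and neither cultures nor sorts. The libraries held between 19700000 and 23600000 mapped fragments as read from the values. In these bulk samples, fewer cells of a type and less RNA per cell cannot be told apart. The genes of the sorting markers were high in the libraries sorted for them: APLNR was at 0.782, 1073, 209 and 25.05 FPKM in BC1, APLNR+, CD31+CD34+ and CD43+, PECAM1 (CD31) at 0.303, 0.460, 93.1 and 126 FPKM, CD34 at 0.236, 0.645, 102 and 42.6 FPKM, and SPN (CD43) at 1.06, 0.294, 11.7 and 92.4 FPKM.

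The total output of the 10 KLF genes grew at each step. Their summed level was 23.8 FPKM in BC1, 71.5 FPKM in mesoderm, 137 FPKM in HEPs and 166 FPKM in HPCs. The leader among the 10 changed with the population. KLF7 held 29.3% of the sum in BC1, KLF6 44.7% in mesoderm, KLF2 37.4% in HEPs and KLF1 41.5% in HPCs. Of the summed FPKM of all KLF genes, these leaders held 11.9%, 19.7%, 28.4% and 32.4%. KLF16, which is not among the 10, was above the leader in BC1 and mesoderm, at 24.9 and 42.7 FPKM, and KLF8 in mesoderm, at 35.8 FPKM. No member was highest in BC1, KLF5 was highest in mesoderm, KLF2, KLF3, KLF7, KLF10 and KLF13 were highest in HEPs, and KLF1, KLF4, KLF6 and KLF11 were highest in HPCs. All 10 members passed the filter of 1 FPKM in at least 1 library, and 7 reached 10 FPKM. KLF4, KLF11 and KLF13 did not.

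**Figure D1:**
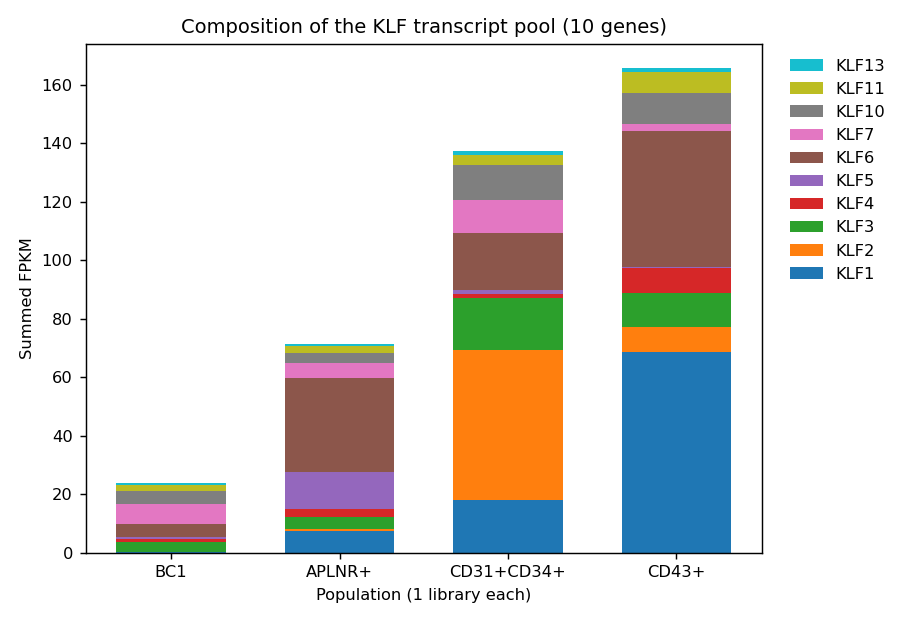
Stacked bars give the FPKM of the 10 KLF genes (vertical axis) in the 1 library of each population (horizontal axis). The sum grew from 23.8 FPKM in BC1 to 166 FPKM in CD43+, with KLF6 the largest block in APLNR+, KLF2 in CD31+CD34+ and KLF1 in CD43+.

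Of the 60 pairs of libraries over the 10 members, 52 had a fold whose counting interval left out 1. This share was not computed over all genes, so it does not set the KLF genes apart from others. The other 8 were all 6 pairs of KLF13, 1 pair of KLF4 and 1 pair of KLF11. Within a library, many members with neighbouring levels were not distinguishable by counting. The interval of their ratio included 1 for 17 of 36 neighbouring pairs. In BC1, KLF6 and KLF10 were at 4.50 and 4.45 FPKM, a ratio of 1.01 (0.863 to 1.19). In HEPs, KLF6, KLF1 and KLF3 were at 19.5, 17.9 and 17.8 FPKM, with a ratio of 1.09 (0.990 to 1.20) between KLF6 and KLF1. The leader stood clear of the next member in each library, by 1.55 (1.27 to 1.89) over KLF6 in BC1, 2.51 (2.32 to 2.72) over KLF5 in mesoderm, 2.64 (2.45 to 2.83) over KLF6 in HEPs and 1.47 (1.40 to 1.56) over KLF6 in HPCs.

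**Figure D2:**
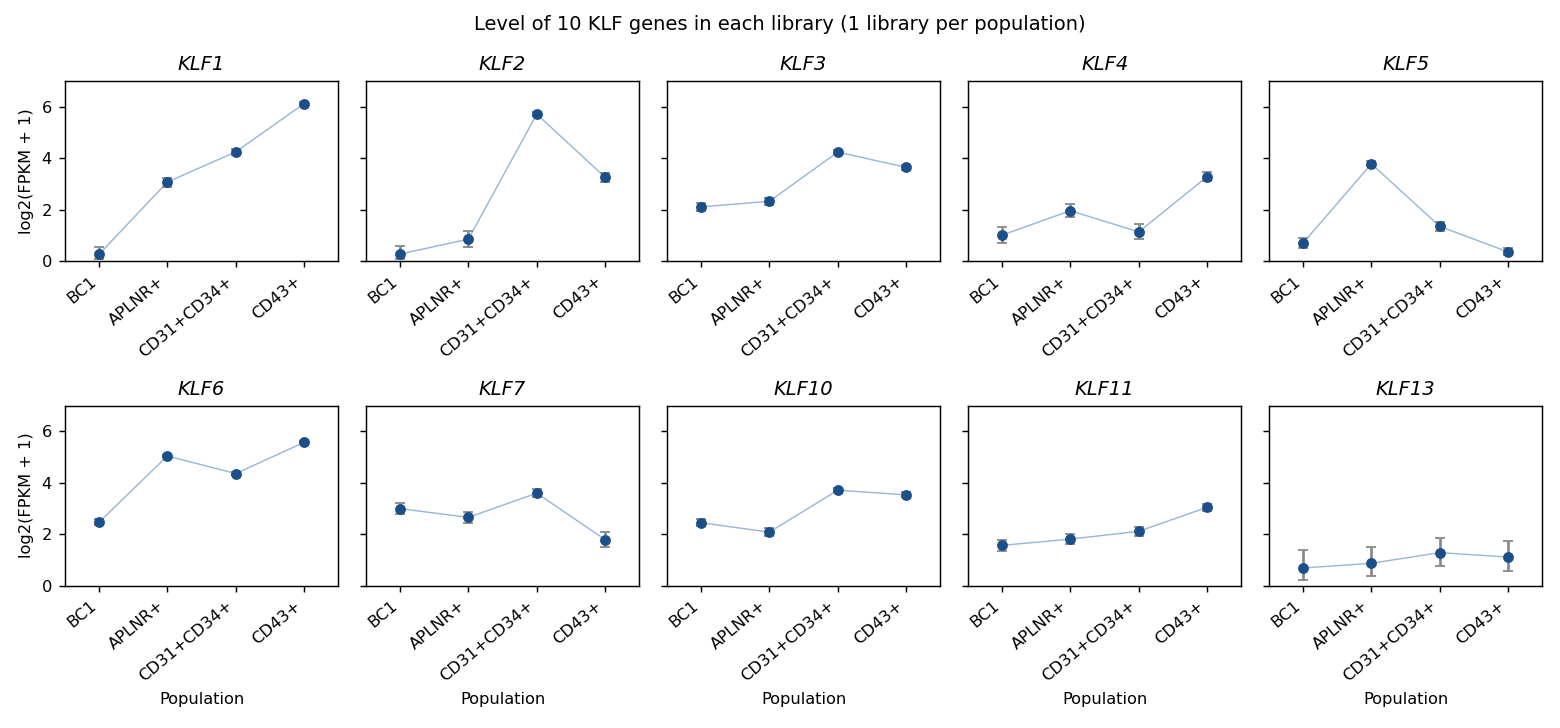
Each panel plots 1 KLF gene as log2(FPKM + 1) in the 4 populations, with 1 library per point and exact 95% counting intervals as bars. KLF1 climbed at each step from 0.190 to 68.7 FPKM, KLF2 peaked in CD31+CD34+ at 51.4 FPKM and KLF5 in APLNR+ at 12.7 FPKM, while the intervals of KLF13 overlapped in all 4 libraries.

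From BC1 to mesoderm, KLF1, KLF5 and KLF6 rose and none fell, where 9.15% of all 17137 genes tested rose and 9.32% fell. From mesoderm to HEPs, KLF1, KLF2, KLF3 and KLF10 rose and KLF5 fell, where 13.0% of all genes rose and 11.4% fell. From HEPs to HPCs, KLF1, KLF4 and KLF6 rose and KLF2 and KLF7 fell, where 7.63% rose and 13.5% fell. Consecutive steps share a library, so a high or low value in it enters both. From BC1 to HPCs, 7 members rose and KLF7 fell, where 15.2% of all genes rose and 18.9% fell. The median change of the members was 0.41, 0.68 and -0.18 over the 3 steps and 1.51 from BC1 to HPCs, beside 0.00, 0.01, -0.08 and -0.06 for all genes. With a pseudocount of 0.1, KLF2 and KLF4 were added to the rises of the first step, KLF7 to the rises and KLF4 to the falls of the second, and KLF11 to the rises and KLF5 to the falls of the last. Size factors also added KLF11 to the rises of the last step. Rescaling to TPM added KLF4 (1.12) to the rises of the first step, KLF7 (1.01) to those of the second and KLF5 (-1.32) to the falls of the last.

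**Figure D3:**
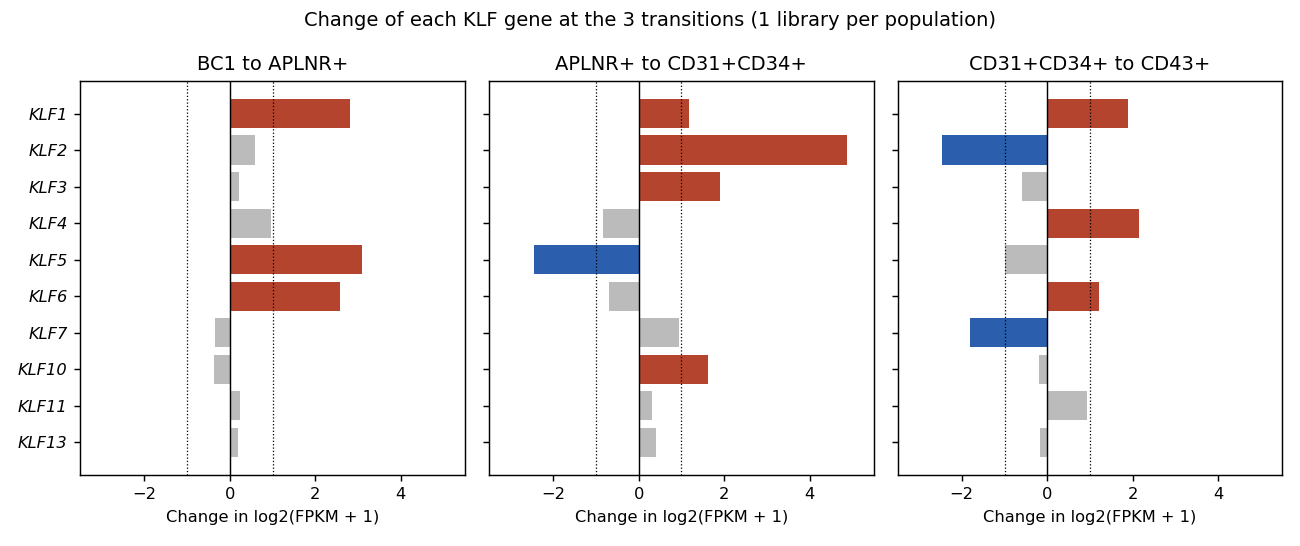
Bars give the change of each KLF gene in log2(FPKM + 1) at the 3 transitions, between 1 library and 1 library, with dotted lines at -1 and 1, red bars for rises, blue for falls and grey for smaller changes. KLF1 rose at all 3 steps, and the longest bar is that of KLF2 from APLNR+ to CD31+CD34+, at 4.87.

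KLF1, the erythroid member, rose at every transition. It was at 0.190 FPKM in BC1, 7.39 FPKM in mesoderm, 17.9 FPKM in HEPs and 68.7 FPKM in HPCs. It was thus near its counting floor in BC1, where about 5.07 fragments stood behind the value, and lowest there. The rise was 38.8-fold (16.5 to 120) from BC1 to mesoderm, 2.43-fold (2.07 to 2.85) from mesoderm to HEPs and 3.83-fold (3.49 to 4.21) from HEPs to HPCs. Over the whole course it was 361-fold (155 to 1101). KLF1 (ENSG00000105610.4) lies on the reverse strand of chromosome 19 from 12884423 to 12887181 in GRCh38, as deposited. GENCODE release 29, a gene annotation, gives it 3 exons and a different start or end.

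The 250 bases before the RefSeq start of KLF1 (GRCh38.p14, chr19:12887202-12887451, reverse strand, written in the direction of the gene) are shown because GATA1 and CCAAT-binding factors are known regulators of this promoter. Capitals mark every match to a GATA motif (AGATAA and AGATAG, together with TGATAA and TGATAG, searched on both strands) or to CCAAT.
KLF1: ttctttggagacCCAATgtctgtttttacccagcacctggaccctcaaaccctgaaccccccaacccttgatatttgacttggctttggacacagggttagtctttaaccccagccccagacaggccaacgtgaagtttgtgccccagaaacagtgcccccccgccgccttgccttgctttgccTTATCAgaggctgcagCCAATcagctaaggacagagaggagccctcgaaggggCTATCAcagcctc
It held 2 GATA matches, both on the opposite strand, read here as TTATCA at 66 to 61 bases and CTATCA at 13 to 8 bases before the start. It held 2 CCAAT matches, at 238 to 234 and at 50 to 46 bases, and none of the matches overlapped. The GATA motif occurred in 22.3% and CCAAT in 32.0% of 35116 RefSeq promoter windows of 250 bases. No CACCC match was in the window, against 54.7% of all windows. A match describes the letters only, and no binding was measured.

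GATA1 and TAL1, known regulators of KLF1, did not rise with it from BC1 to mesoderm. GATA1, the erythroid and megakaryocytic master regulator, was listed at 0 in BC1 and in mesoderm, where 3 fragments would give 0.132 FPKM. It was at 13.4 FPKM in HEPs and 190 FPKM in HPCs. TAL1, its partner in the same DNA-bound complex, was at 0, 0.061, 71.2 and 184 FPKM in the 4 populations. KLF1 was at 7.39 FPKM in mesoderm on day 2, while both regulators passed 10 FPKM only in the libraries of day 5 and day 8. What regulated KLF1 in any of these populations was not tested.

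Of 23 erythroid genes known to respond to KLF1, 22 passed the filter. At the 3 steps in turn, 9.15%, 13.0% and 7.63% of all genes rose and 9.32%, 11.4% and 13.5% fell. From BC1 to mesoderm, where KLF1 rose most in fold, 3 of the 22 rose and 3 fell, with a median change of -0.15. From mesoderm to HEPs 7 rose and 3 fell, with a median of 0.27. From HEPs to HPCs 17 rose and 2 fell, with a median of 2.06, beside a median of -0.08 over all 17137 genes tested. The alpha globin genes HBA2 and HBA1 went from 0.259 and 0 FPKM to 417 and 65.3 FPKM in this step, although reads of this near-identical pair can be split between them. ALAS2, the first enzyme of erythroid heme synthesis, went from 3.85 to 126 FPKM, and DMTN, a protein of the red cell membrane skeleton, from 2.72 to 45.2 FPKM. The 2 that fell encode adhesion molecules carrying blood group antigens and are named after their values were seen. CD44 went from 97.5 to 14.3 FPKM and BCAM from 56.6 to 12.9 FPKM.

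From BC1 to mesoderm, none of the 5 erythroid and none of the 5 megakaryocytic markers rose, and 2 of the latter fell. The 5 erythroid markers summed to 7.97, 15.7, 54.7 and 5953 FPKM in the 4 populations, and 4 of 5 rose at each of the later steps. HBZ, an embryonic globin gene, was at 0 in BC1 and in mesoderm. The 5 megakaryocytic markers summed to 13.6, 4.24, 87.4 and 3073 FPKM, so HPCs also held high megakaryocytic RNA. GP9 was at 0 in BC1, and GP9 and PF4 in mesoderm. The part of cell composition in the levels of KLF1 was not tested. The gene whose profile over the 4 libraries was most like that of KLF1, among 8932 protein-coding genes with at least 10 FPKM in a library, was KEL, the Kell blood group gene, at 1.45, 14.1, 37.6 and 127 FPKM. The root mean squared difference between the centred log2 profiles of KLF1 and KEL was 0.09. PSTPIP2 and KALRN followed at 0.20 and 0.35.

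KLF2, the endothelial member, was low in BC1 and mesoderm and peaked in HEPs. It was at 0.202 FPKM in BC1, 0.796 FPKM in mesoderm, 51.4 FPKM in HEPs and 8.52 FPKM in HPCs. HEPs thus stood far above the other 3 libraries. The rise from mesoderm to HEPs was 64.6-fold (40.5 to 110) and the fall to HPCs was 6.04-fold (5.17 to 7.09). The value in HPCs was 42.1-fold (16.4 to 153) above that in BC1. From BC1 to mesoderm the change was 0.58 on the log2 scale, from about 4.10 to 17.6 fragments. KLF2 (ENSG00000127528.5) lies on chromosome 19 from 16324817 to 16327874, on the forward strand. Its pseudogene KLF2P1 was at 2.92, 2.03, 2.94 and 2.38 FPKM, above KLF2 itself in BC1 and mesoderm, so that the low values of KLF2 are uncertain where reads could be shared.

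The corresponding window of KLF2 (GRCh38.p14, chr19:16324576-16324825, forward strand) is shown because MEF2 factors are known activators of KLF2. Capitals mark the match to the MEF2 motif, searched on both strands.
KLF2: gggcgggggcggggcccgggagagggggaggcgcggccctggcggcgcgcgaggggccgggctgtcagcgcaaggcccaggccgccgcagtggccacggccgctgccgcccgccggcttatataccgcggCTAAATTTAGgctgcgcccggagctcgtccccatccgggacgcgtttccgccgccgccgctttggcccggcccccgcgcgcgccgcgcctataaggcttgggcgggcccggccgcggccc
The match lay 120 to 111 bases before the start, and 2.80% of the 35116 windows held this motif. No GATA, CACCC or CCAAT match was found in the window. It was 80.0% GC, against 55.2% in the KLF1 window. Windows were searched for 8 of the members, and not for KLF3 and KLF10. Those of the other 6 (KLF4, KLF5, KLF6, KLF7, KLF11 and KLF13) held neither a GATA nor a MEF2 match.

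The MEK5-ERK5-MEF2 route and the cerebral cavernous malformation proteins act upstream of KLF2. They were put in a single list, which does not separate genes that raise KLF2 from genes that restrain it. Of 11 genes of this list, 6 rose and none fell from mesoderm to HEPs, with a median change of 1.19 beside 0.01 over all genes. Of all genes, 13.0% rose and 11.4% fell in this step, and 7.63% and 13.5% in the next. MEF2C went from 0.975 to 29.2 FPKM. MAP2K5, which encodes the kinase MEK5, went from 3.18 to 9.60 FPKM. CCM2, a scaffold of the cavernous malformation complex, went from 20.7 to 52.8 FPKM, and PIEZO1, a mechanosensitive channel, from 28.2 to 70.0 FPKM. From HEPs to HPCs, where KLF2 fell, MEF2C rose to 159 FPKM. It was the 1 gene of the list that rose in that step, and MAP3K3, the kinase above MEK5, the 1 that fell, from 62.0 to 22.1 FPKM. The level of MEF2C therefore followed that of KLF2 into HEPs and not out of them.

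Of 14 endothelial genes that respond to KLF2, 11 passed the filter, and 6 rose and 4 fell from mesoderm to HEPs, with a median of 1.92. Of all genes, 13.0% rose and 11.4% fell in this step, with a median of 0.01. TEK, the angiopoietin receptor, went from 1.85 to 82.5 FPKM, THBD (thrombomodulin) from 0.121 to 11.5 FPKM and SELE (E-selectin) from 0.042 to 10.8 FPKM, the last from below its 3-fragment floor. ASS1, an enzyme of arginine synthesis, fell from 189 to 9.96 FPKM, and ANGPT2, CCL2 and NQO1 also fell. The list holds genes that KLF2 is known to repress, such as SELE, VCAM1, EDN1, ANGPT2 and CCL2, beside genes it induces. From HEPs to HPCs 1 rose and 8 fell, with a median of -2.13 beside -0.08 over all genes. In that step 7.63% of all genes rose and 13.5% fell. NOS3, the endothelial nitric oxide synthase, fell from 93.7 to 2.87 FPKM, NQO1 from 24.0 to 1.98 FPKM and SELE from 10.8 to 0.188 FPKM.

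Endothelial markers moved with KLF2 in part. All 5 rose from mesoderm to HEPs and 4 fell from HEPs to HPCs, where PECAM1 was higher than in HEPs. From BC1 to mesoderm 1 rose and 1 fell. The sum of the 5 was 40.6, 72.9, 1215 and 287 FPKM. CDH5 (VE-cadherin) was at 0.523, 0.663, 224 and 9.38 FPKM, and no endothelial marker was at 0 in any library. Stromal markers also peaked in HEPs, at a sum of 407 FPKM against 95.2 FPKM in mesoderm and 51.9 FPKM in HPCs. The part of composition in the levels of KLF2 was not tested. The genes most like KLF2 in profile were RHOJ, a GTPase of endothelial cells, at 0.161, 0.979, 41.6 and 7.90 FPKM with a difference of 0.16, then GNG11 at 0.27 and SPNS2 at 0.28.

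**Figure D4:**
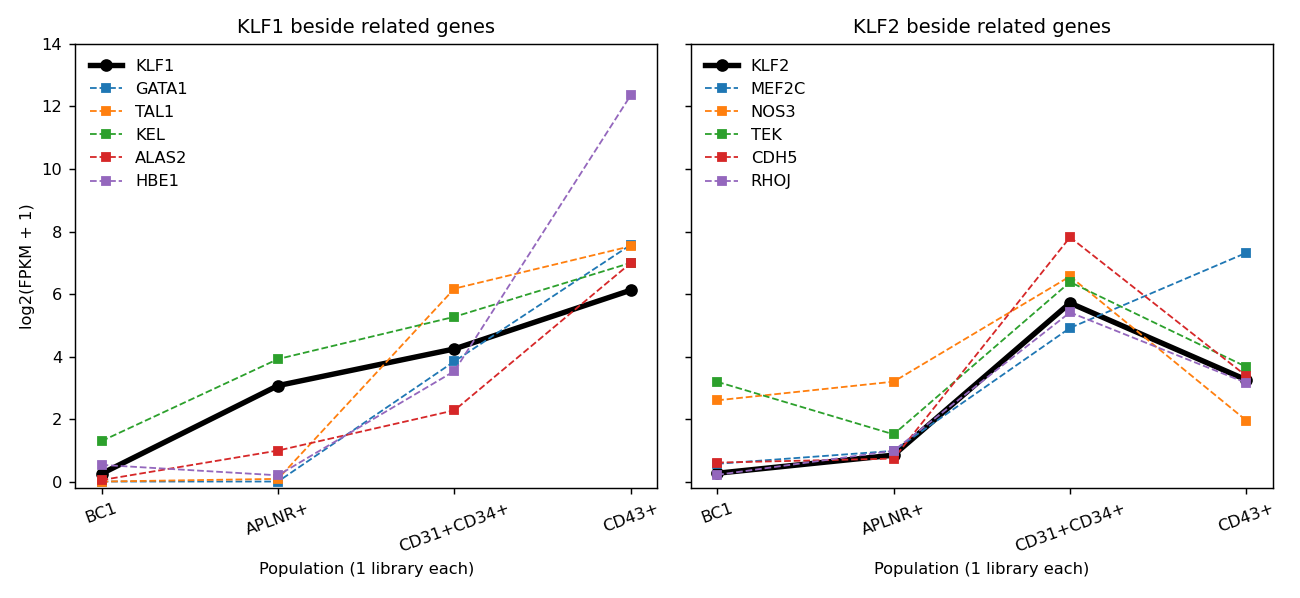
Lines join log2(FPKM + 1) in the 1 library of each population for KLF1 (left) and KLF2 (right, both black) and for related genes (dashed). KLF1 was at 7.39 FPKM in APLNR+ where GATA1 was at 0, and KLF2 fell from 51.4 to 8.52 FPKM in CD43+ where MEF2C reached 159 FPKM.

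KLF4 and KLF5, with KLF2 the members tied to pluripotency, were low in the pluripotent cells. KLF4 was at 1.005 FPKM in BC1, 2.88 FPKM in mesoderm, 1.19 FPKM in HEPs and 8.72 FPKM in HPCs. Its highest value was in HPCs, and its values in BC1 and HEPs differed by 1.18-fold (0.663 to 2.13), an interval that included 1. The 5 myeloid markers also summed highest in HPCs, at 287 FPKM, against 3.11, 6.04 and 47.8 FPKM in BC1, mesoderm and HEPs. The part of cell composition in the levels of KLF4 was not tested. The rise of KLF4 from HEPs to HPCs was 7.36-fold (5.03 to 11.1). From BC1 to mesoderm the change was 0.95, just under the threshold, with a fold of 2.86 (1.75 to 4.84), and from mesoderm to HEPs it was -0.83, with KLF4 2.43-fold (1.57 to 3.83) lower.

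KLF5 was at 0.614 FPKM in BC1, 12.7 FPKM in mesoderm, 1.53 FPKM in HEPs and 0.272 FPKM in HPCs. The mesoderm library stood alone as the high one. KLF5 rose 20.7-fold (14.8 to 29.7) into mesoderm and fell 8.29-fold (6.78 to 10.2) from mesoderm to HEPs. The last step was a change of -0.99, 5.64-fold (3.38 to 9.97) lower, and left KLF5 the lowest member in HPCs. KLF5 (ENSG00000102554.13) lies on chromosome 13 from 73054976 to 73077542. Its closest profiles were those of MT1G, a metallothionein, with a difference of 0.06, PTH1R, the parathyroid hormone receptor, at 0.12, and CDH22, a cadherin, at 0.15.

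Genes of the naive pluripotent state were mostly below the filter. Of 10 such genes only TBX3 and SUSD2 passed the filter. TBX3, a T-box factor also active in mesoderm, rose from 0.354 FPKM in BC1 to 69.0 FPKM in mesoderm and then fell to 23.9 FPKM in HEPs. SUSD2, a surface protein, was at 1.53 and 1.79 FPKM in BC1 and mesoderm. The general pluripotency genes were high in BC1, where POU5F1, SOX2, NANOG and LIN28A summed to 2555 FPKM, against 733 FPKM in mesoderm, and SOX2 was at 0 in HEPs and HPCs. In BC1, the library in which these markers were highest, KLF2, KLF4 and KLF5 were at 0.202, 1.005 and 0.614 FPKM.

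KLF6, a widely expressed member that is induced by injury and growth factors, was the most abundant of the 10 in mesoderm. It ranked second of them in BC1, HEPs and HPCs, although counting did not separate it from KLF10 in BC1 or KLF1 in HEPs. It was at 4.50 FPKM in BC1, 31.9 FPKM in mesoderm, 19.5 FPKM in HEPs and 46.6 FPKM in HPCs. It rose 7.10-fold (6.38 to 7.93) into mesoderm, was 1.64-fold (1.55 to 1.74) lower in HEPs, a change of -0.68, and rose 2.39-fold (2.26 to 2.52) into HPCs. Levels therefore alternated, with mesoderm and HPCs high and BC1 and HEPs lower. KLF6 (ENSG00000067082.14) lies on chromosome 10 from 3775996 to 3785281. Its nearest profile was that of ELMO1, a regulator of Rac signaling, with a difference of 0.22, then ACSS2 at 0.25 and WIPF1 at 0.26.

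KLF7, a member of the same subgroup as KLF6 that is known from neurons and lymphoid progenitors, took a different course. It was at 6.97 FPKM in BC1, 5.28 FPKM in mesoderm, 11.1 FPKM in HEPs and 2.45 FPKM in HPCs. It was the 1 member that fell from BC1 to HPCs, by 2.85-fold (2.06 to 3.99). KLF5 was also lower in HPCs than in BC1, by 2.26-fold (1.24 to 4.26), a change of -0.34 on log2(FPKM + 1). The fall of KLF7 came in the last step, 4.53-fold (3.35 to 6.23), after a change of 0.94 from mesoderm to HEPs. The changes of KLF6 and KLF7 had opposite signs at each transition, 2.58 and -0.34 into mesoderm, -0.68 and 0.94 into HEPs, and 1.22 and -1.81 into HPCs. KLF7 (chromosome 2, 207074137 to 207167267) has 8 protein-coding transcripts of 539 to 8362 bases, so its fragment counts and intervals are rough.

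KLF3, a repressor that binds CtBP and is itself a target of KLF1 in red cells, was highest in HEPs. It was at 3.29 FPKM in BC1, 3.99 FPKM in mesoderm, 17.8 FPKM in HEPs and 11.5 FPKM in HPCs. It rose 4.47-fold (3.92 to 5.10) from mesoderm to HEPs and was 1.55-fold (1.42 to 1.70) lower in HPCs, a change of -0.59. While KLF1 rose in the last step, KLF3 did not. KLF3 (ENSG00000109787.12) lies on chromosome 4 from 38664196 to 38701042. The opposite-strand gene KLF3-AS1 shares 688 bases with it and was at 0.252, 0.849, 2.67 and 0.912 FPKM. Whether strand was used in counting is not given in the sources used here, so reads in these bases cannot be told apart.

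KLF10 and KLF11 are induced by TGF-beta, and KLF10 represses the inhibitor SMAD7. KLF10 was at 4.45 FPKM in BC1, 3.22 FPKM in mesoderm, 12.1 FPKM in HEPs and 10.5 FPKM in HPCs. The last 2 libraries formed the high pair. It rose 3.76-fold (3.24 to 4.38) from mesoderm to HEPs. In HPCs it was 1.15-fold (1.04 to 1.27) lower, and with values rescaled by size factors this interval included 1.

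KLF11 was at 1.95 FPKM in BC1, 2.50 FPKM in mesoderm, 3.32 FPKM in HEPs and 7.25 FPKM in HPCs. Each value was above the one before. No single step reached the threshold, with changes of 0.24, 0.30 and 0.93, although the last was 1.05 with size factors and 1.10 with a pseudocount of 0.1, while the change from BC1 to HPCs was 1.48, or 3.71-fold (2.88 to 4.83). The first step's interval included 1 (0.945 to 1.73), and left it out when counted at the longest transcript (1.03 to 1.59). That of the second, 1.33-fold (1.03 to 1.72), included 1 after rescaling by size factors. KLF13, known from T cells and heart, was at 0.604, 0.823, 1.43 and 1.15 FPKM. Its 3 protein-coding transcripts run from 489 to 6825 bases. Counted at their median length, all 6 of its folds had intervals that included 1, and counted at the longest, none did. From BC1 to HEPs the fold of 2.37 had an interval of 0.665 to 11.0 by the first length and 1.82 to 3.11 by the second. KLF10 lies on chromosome 8 from 102648779 to 102655902, KLF11 on chromosome 2 from 10042849 to 10054836 and KLF13 on chromosome 15 from 31326855 to 31435665.

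The other TGF-beta and SMAD response genes moved in both directions. Their list does not separate responses to TGF-beta from other responses through SMADs, and the activity of TGF-beta signaling was not tested. Of 14, all passing the filter, 5 rose and 3 fell from BC1 to mesoderm, and 5 rose and 4 fell from mesoderm to HEPs. Of all genes, 9.15% rose and 9.32% fell in the first step and 13.0% and 11.4% in the second. From HEPs to HPCs 2 of the 14 rose and 9 fell, with a median of -1.67 beside -0.08 over all genes. In that step 7.63% of all genes rose and 13.5% fell. ID3 and ID1, inhibitors of basic helix-loop-helix factors, fell from 159 to 3.30 FPKM and from 636 to 18.7 FPKM. SMAD6 and SMAD7, the inhibitory SMADs, fell from 486 to 24.2 FPKM and from 32.2 to 1.27 FPKM. In the same step KLF11 changed by 0.93 and KLF10 by -0.18.

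Several KLF genes, KLF2, KLF4, KLF6 and KLF10 among them, are also immediate early genes, switched on within minutes by growth factors, stress or cell handling. Immediate early genes that are not KLFs were therefore listed beside them. Of 15, 5 rose and 2 fell from BC1 to mesoderm, 9 rose and 3 fell from mesoderm to HEPs, and 9 rose and 1 fell from HEPs to HPCs, with medians of 0.82, 1.32 and 1.50. At these steps, 9.15%, 13.0% and 7.63% of all genes rose and 9.32%, 11.4% and 13.5% fell. Medians over all genes were 0.00, 0.01 and -0.08. The summed level of the 15 was 188, 225, 492 and 1830 FPKM. FOSB went from 9.15 to 422 FPKM in the last step, FOS from 27.9 to 455 FPKM and EGR1 from 34.6 to 239 FPKM, while EGR3 went from 0.089 to 6.88 FPKM. KLF4 and KLF6 thus peaked in the library with the highest immediate early sum, and KLF2 and KLF10 in the one before it. IER3 had the course of KLF5, at 2.27, 43.2, 2.15 and 0.096 FPKM. The part of cell sorting or of growth factors in these levels was not tested.

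Genes for proteins that act with KLFs were counted in the same way. Of 14 cofactors and modifiers, none rose or fell from BC1 to mesoderm. KAT2B, an acetyltransferase, was the 1 that rose from mesoderm to HEPs, from 0.654 to 3.29 FPKM, and none fell. WWP1, a ubiquitin ligase for KLF2 and KLF5, was the 1 that fell from HEPs to HPCs, from 31.5 to 13.5 FPKM, and none rose. At the 3 steps in turn, 9.15%, 13.0% and 7.63% of all genes rose and 9.32%, 11.4% and 13.5% fell. From BC1 to HPCs 1 of the 14 rose and 3 fell, where 15.2% of all genes rose and 18.9% fell. CTBP1, a partner of KLF3, was at 199 and 201 FPKM in mesoderm and HEPs, the step in which KLF3 rose. SIN3A, the partner of KLF10 and KLF11, was at 22.6, 22.3 and 21.8 FPKM from mesoderm to HPCs.

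Of 17 other KLF and SP genes, which bind the same elements, 13 passed the filter. From BC1 to mesoderm 3 rose and none fell, from mesoderm to HEPs 2 rose and 2 fell, and from HEPs to HPCs none rose and 2 fell. At the 3 steps in turn, 9.15%, 13.0% and 7.63% of all genes rose and 9.32%, 11.4% and 13.5% fell. KLF8, SP5 and SP6 rose in the first step, SP6 and SP7 rose and KLF8 and KLF15 fell in the second, and SP6 and SP7 fell in the last. SP5, a known Wnt target, went from 0.258 FPKM in BC1 to 55.6, 61.4 and 58.9 FPKM in the later populations. KLF8, a CtBP-binding repressor related to KLF3, was at 3.54, 35.8, 11.2 and 8.12 FPKM and so, like KLF5, was highest in mesoderm. SP6 was at 0.665, 3.75, 46.8 and 0.909 FPKM, highest in HEPs like KLF2. KLF15, a metabolic regulator, was at 4.70, 10.1, 2.69 and 1.03 FPKM. The widely expressed KLF16, SP1, SP2 and SP3 passed 10 FPKM in at least 1 library and did not rise or fall at any of the 3 steps, with KLF16 between 24.9 and 42.7 FPKM.

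**Figure D5:**
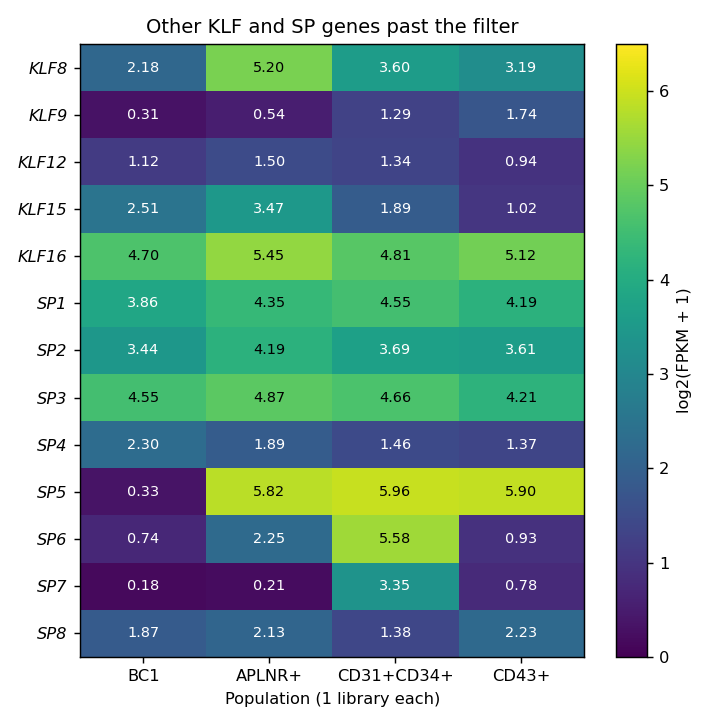
Each cell gives log2(FPKM + 1) of 1 of the 13 other KLF and SP genes (rows) in the 1 library of each population (columns), with colour following the printed value. SP5 was high in the 3 sorted populations, at 55.6 to 61.4 FPKM, and SP6 in CD31+CD34+, at 46.8 FPKM.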

How the data were processed

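Total RNA of 4 populations was sequenced as 1 TruSeq RNA library each. The deposited table holds FPKM values per gene, computed by the authors as fragments scaled to transcript length and library size. The submitters' processing notes name BWA, Bowtie and RSEM and the build hg19, without versions or roles, and the study's methods give no aligner or quantification program. Without regard to version, 58011 of 58274 identifiers (99.5%) were in GENCODE release 29 on GRCh38. Of the 55647 with the same version, 99.97% had the same start and end, although KLF1 differed from the release in its locus. Coordinates are therefore given as those of GRCh38 with the first base numbered 1. The table held 58365 rows, and the rows of 90 repeated identifiers were summed. No column of expression was left out.

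Depth was recovered from the steps between low FPKM values of genes with 1 transcript of at least 1000 bases, and 92.4% to 94.5% of these values fell within 0.1 of a whole number of fragments. Approximate fragments used the median protein-coding transcript length. Folds carry exact Clopper-Pearson 95% intervals, and 3 fragments were taken as the floor. Values were analysed as log2(FPKM + 1) for 17137 genes with at least 1 FPKM in a library, 13910 of them protein-coding. FPKM values are not counts and were put in no count model. Alternatives were a pseudocount of 0.1, filters of none or 5 FPKM, a change of 2, rescaling to TPM or by median-of-ratios size factors, the largest row of an identifier and the longest transcript. The interval script was tested on simulated data.

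The members and gene lists were chosen with earlier results of these data known. The lists were written from general knowledge. Named were all members, the 2 to 4 genes of a list with the largest change at a step, other KLF and SP genes of at least 10 FPKM, the 3 nearest profiles of members spanning at least 3 on the log2 scale (and of KLF1 and KLF2), the sorting markers, GATA1, TAL1 and MEF2C. KLF3-AS1, KLF2P1, CDH5, SIN3A, CTBP1, and the genes given as the few that rose or fell were added after values were seen. The values of some list genes are not reported here. Promoter windows come from RefSeq on GRCh38.p14, which had 35116 entries. Python 3.11.15, numpy 2.4.6, pandas 2.3.3, scipy 1.17.1 and matplotlib 3.10.9 were used.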

Additional observations from a re-analysis of the deposited data

How the results depend on the processing

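No member change of at least 1, and no member fold whose interval left out 1, changed direction under the alternatives run. Alternatives were run for the member changes, folds and counts and the list counts, not for nearest profiles, shares or single list genes. Counts with the largest row kept or with no filter stayed within 1.5 times the values given. No paired analysis was possible because each population had 1 library, and no replicate could be left out for the same reason. With a pseudocount of 0.1, 5 members rose from BC1 to APLNR+ and 2 fell from APLNR+ to CD31+CD34+. In the first step 1 cofactor rose, and in the last 2 cofactors fell and 1 other KLF or SP gene rose. At this pseudocount, 13.6% of all genes rose in the first step, 16.7% fell in the second, and 11.1% rose and 20.4% fell in the last. Rescaling to TPM also gave 2 falling cofactors in the last step, where 17.2% of all genes fell. The rescaling moved the median change over all genes in that step to -0.19. A filter of 5 FPKM left 0 cofactors rising from APLNR+ to CD31+CD34+, where 14.3% of all genes rose. Requiring a change of 2 gave, from BC1 to APLNR+, 1 immediate early gene rising and 0 falling. From APLNR+ to CD31+CD34+ it gave 1 member rising, 0 other KLF and SP genes falling, 2 KLF2-responsive endothelial genes falling, 1 upstream gene rising, 3 immediate early genes rising and 1 falling, and 0 cofactors rising. From CD31+CD34+ to CD43+ it gave 1 member rising and 1 falling, and 1 TGF-beta and SMAD response gene rising. In that step 5 immediate early genes rose and 0 fell, and 0 cofactors fell. From BC1 to CD43+ 4 members rose and 0 fell, where 5.37% of all genes rose and 6.77% fell. With this change of 2, 2.68% of all genes rose and 2.29% fell in the first step. The shares were 4.08% and 3.15% in the second step and 2.28% and 4.32% in the last. Size factors moved the ratio of CD43+ to CD31+CD34+ to 4.23 for KLF1, 0.710 for KLF3 and 2.64 for KLF6, and left 50 of 60 member intervals without 1, against 59 with the longest transcript. Neither share was computed over all genes. Depth limits KLF1 and KLF2 in BC1, each read from a few fragments. Whether the intervals of KLF13, and that of KLF11 from BC1 to APLNR+, included 1 depended on the transcript length assumed. With size factors, the share of all genes that rose and fell changed order at the first step, to 9.38% and 8.99%, and at the second, to 11.99% and 12.2%, where the median of all genes was -0.01. The intervals hold counting error only.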
